A study of Homo sapiens with 12 samples.

Results

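Hypoxic KG1a cells sorted bright for CD38 and CLL-1 were compared with hypoxic KG1a cells sorted dim for both, with 3 libraries in each group, which makes 6 of the 12 libraries of the study. The comparison covers every gene whose value reached 10 in 3 or more of the 12 libraries, and this rule left 15057 of the 28395 genes in the table. KG1a is an established line of immature human leukaemia cells, derived from acute myeloid leukaemia. The hypoxic bright group holds CD34-positive, CD38bright and CLL-1bright cells kept at 3% oxygen. The hypoxic dim group holds CD34-positive, CD38dim and CLL-1dim cells at the same oxygen level. The other 6 libraries are normoxic bright and normoxic dim cells, sorted by the same markers, and they enter the gene filter and the fit, which take all 12 libraries, and show where the hypoxic difference departs from the normoxic one. All cells are labelled WT, come from this 1 line and were grown in RPMI medium with serum, and libraries were made from mRNA-enriched total RNA. The time spent in hypoxia is not given in the sources used here. All libraries carry the same batch date. Whether replicates came from separate cultures is not stated in the labels, and the p-values then cover only the spread between these libraries, which may be technical.

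CD38 is a surface enzyme that consumes NAD and is used with CD34 to grade how far leukaemic and normal progenitors have matured. CLL-1, encoded by CLEC12A, is a C-type lectin receptor of myeloid cells and a target on leukaemia cells. When oxygen is short, the hydroxylases that mark hypoxia-inducible factor (HIF) for destruction work poorly, and HIF then raises genes for glycolysis, mitophagy, collagen hydroxylation and vessel growth.

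The values are normalized read counts, rounded to whole numbers by the authors, and they summed to between 31828256 and 32560463 per library. From the spacing of low values, about 25200000 to 32100000 reads were counted in the hypoxic bright libraries and 33000000 to 35400000 in the hypoxic dim libraries, so bright libraries were read less deeply. A gene passed when its Benjamini-Hochberg adjusted p from limma was under 0.05 over all 15057 genes. A value after ± is the standard error of the fold change before it, and every group has n = 3. Fold changes are bright over dim on the scale of log2 of the value plus 1, which understates the change of genes with low values. Bulk libraries cannot tell fewer cells of a type apart from less RNA per cell.

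Of the sort markers, CD38 and CD34 transcripts were higher in hypoxic bright cells and CLEC12A did not pass. CD38 (chromosome 4, 15778298 to 15849083, hg38) had 125, 139 and 161 in hypoxic bright libraries, against 25, 9 and 13 in hypoxic dim libraries. All bright values lay above all dim values (log2 fold change 3.21 ± 0.42, adjusted p = 0.000249). CD34 (chromosome 1, 207881028 to 207911338), the progenitor antigen for which both sorts were positive, had 32245, 31967 and 32032 in hypoxic bright libraries, against 17184, 19897 and 19235 in hypoxic dim libraries. The groups did not overlap, and the log2 fold change of 0.78 ± 0.08 was small beside that of CD38. CLEC12A (chromosome 12, 9951316 to 9999354) had 33, 15 and 13 in hypoxic bright libraries, against 40, 9 and 14 in hypoxic dim libraries. These values overlapped and were near the lower limit of the filter (log2 fold change 0.10 ± 0.58, adjusted p = 0.912), so the transcript gave no check of the CLL-1 sort. Other markers of an immature myeloid line were present in both groups. ANPEP, which encodes CD13, had 15911, 16306 and 17058 in hypoxic bright libraries, against 13955, 14892 and 13722 in hypoxic dim libraries. GATA2, a transcription factor of progenitors, had 9409, 10178 and 10977 in hypoxic bright libraries, against 6081, 7141 and 6123 in hypoxic dim libraries. Of 18 neutrophil granule genes 9 did not pass the filter, and 8 were at 0 in every hypoxic bright library. PRSS57, a granule serine protease, had 9597, 9865 and 9903 in hypoxic bright libraries, against 7433, 7659 and 6548 in hypoxic dim libraries (log2 fold change 0.44 ± 0.08, adjusted p = 0.00219). MPO, myeloperoxidase, had 12, 18 and 13 in hypoxic bright libraries, against 4618, 16 and 89 in hypoxic dim libraries, so 1 dim library stood far above the other 5 (log2 fold change -3.67, adjusted p = 0.0779). MPO passed without dim replicate 2 (log2 fold change -5.41, adjusted p = 0.0142), and it did not without dim replicate 1 (log2 fold change -1.37, adjusted p = 0.227). ANPEP passed (log2 fold change 0.21 ± 0.07, adjusted p = 0.0426). The call of ANPEP was lost whichever of the 6 hypoxic libraries was left out (adjusted p between 0.0513 and 0.125).

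In all, 1941 genes were higher and 2053 lower in hypoxic bright cells, which is 12.9% and 13.6% of the genes tested. The hypoxic groups did not overlap for 1860 of the higher and 1985 of the lower genes. Groups that lie apart, as given for single genes, were thus usual among called genes. The changes were mostly modest: 259 of the higher genes and 738 of the lower genes changed more than 2-fold, and the median size of a change among called genes was 0.51 for higher and 0.57 for lower genes (log2). Of the lower genes, 238 had replicates more than 4-fold apart within a hypoxic group after 10 was added, against 1 of the higher genes. The total of 3994 called genes rested on particular libraries: leaving out hypoxic bright replicate 1 gave 2466, leaving out bright replicate 2 gave 2289 and leaving out hypoxic dim replicate 2 gave 2637. Without both libraries numbered 2, which held the highest sums of epithelial markers in their groups, 1135 genes passed, 547 higher and 588 lower, in a comparison of 2 against 2. Against a change of at least 1.5-fold, 74 genes passed as higher and 195 as lower.

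The genes with the largest rise in hypoxic bright cells included surface receptors, adhesion molecules and transcription factors. CD84, a receptor of the SLAM family, had 272, 362 and 372 in hypoxic bright libraries, against 98, 59 and 33 in hypoxic dim libraries. NYNRIN, a gene of the leukaemia stem cell score, had 1692, 1857 and 2212 in hypoxic bright libraries, against 368, 442 and 379 in hypoxic dim libraries. ITGB3, the integrin beta 3 chain of platelets, had 2669, 2735 and 2413 in hypoxic bright libraries, against 591, 515 and 519 in hypoxic dim libraries. For each of these genes every bright value lay above every dim value, as the rule that picked the largest rises required. The log2 fold changes were 2.50 ± 0.31 for CD84 (adjusted p = 0.000171), 2.27 ± 0.13 for NYNRIN (adjusted p = 4.49e-07) and 2.27 ± 0.17 for ITGB3 (adjusted p = 4.45e-06). SIGLEC6, a sialic acid-binding receptor, had 2212, 2082 and 1252 in hypoxic bright libraries, against 358, 353 and 432 in hypoxic dim libraries. Bright replicate 3 was the lowest of its group, still well above the dim libraries (log2 fold change 2.24 ± 0.18, adjusted p = 8.55e-06).

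Other large rises were found for proteins of membranes and nuclei. IL1RL1, the receptor for interleukin 33, had 401, 406 and 454 in hypoxic bright libraries, against 106, 77 and 110 in hypoxic dim libraries (log2 fold change 2.11 ± 0.17, adjusted p = 8.55e-06). IGSF9B, an adhesion protein of the immunoglobulin superfamily, had 3722, 4445 and 2791 in hypoxic bright libraries, against 791, 533 and 728 in hypoxic dim libraries (log2 fold change 2.41 ± 0.29, adjusted p = 0.000147). ZBTB20, a zinc finger transcription factor, had 2036, 2308 and 1928 in hypoxic bright libraries, against 411, 376 and 505 in hypoxic dim libraries (log2 fold change 2.28 ± 0.13, adjusted p = 4.49e-07). Each of these genes kept its groups apart, which the same rule required. IKZF2, which encodes the lymphoid transcription factor Helios, had 148, 183 and 162 in hypoxic bright libraries, against 27, 19 and 49 in hypoxic dim libraries (log2 fold change 2.44 ± 0.32, adjusted p = 0.000272). SHANK2, a scaffold protein, had 2855, 3113 and 3040 in hypoxic bright libraries, against 695, 724 and 804 in hypoxic dim libraries (log2 fold change 2.02 ± 0.08, adjusted p = 2.78e-08). NPR3, the clearance receptor for natriuretic peptides, had 1495, 1637 and 1584 in hypoxic bright libraries, against 356, 374 and 522 in hypoxic dim libraries (log2 fold change 1.93 ± 0.15, adjusted p = 7.82e-06). No bright value of these genes overlapped a dim value, again by the rule. CTTNBP2, ZNF704, BTBD11 and the long non-coding RNA LINC01336 completed the 15 largest rises, with log2 fold changes of 2.48 ± 0.24, 1.98 ± 0.13, 2.00 ± 0.35 and 2.31 ± 0.27.

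**Figure D1:**
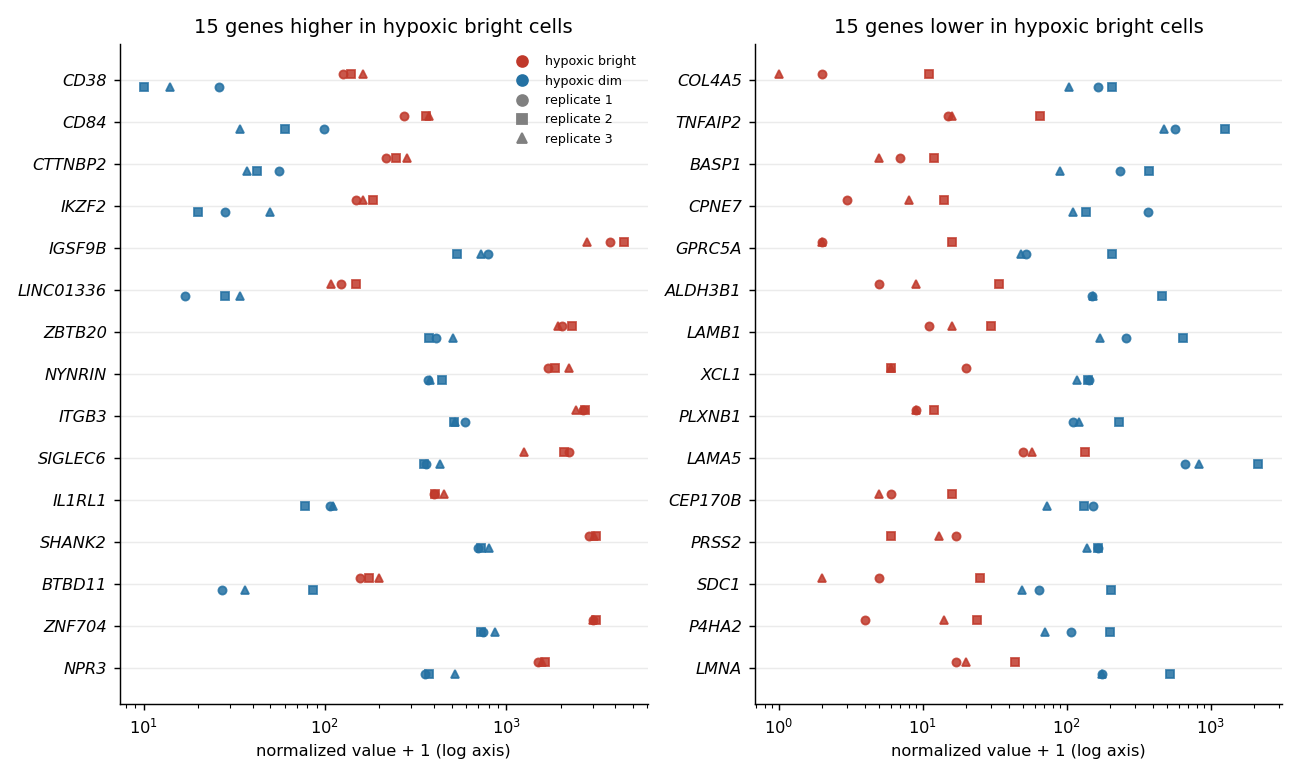
Normalized value plus 1 (log axis) in each of the 6 hypoxic libraries, for the 15 genes with the largest rise and the 15 with the largest fall in hypoxic bright cells among genes with a group mean of at least 100 and replicates within 4-fold of each other after 10 was added. Colour gives the group and marker shape the replicate. The rule asked for groups that do not overlap, and on the right TNFAIP2 and LAMA5, at up to 64 and 132, had the highest bright values.

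The largest falls formed 2 kinds. One kind fell by a similar amount in normoxia. XCL1, a lymphocyte chemokine (chromosome 1, 168576061 to 168582077), had 19, 5 and 5 in hypoxic bright libraries, against 141, 139 and 117 in hypoxic dim libraries. The log2 fold change was -3.89 ± 0.42 in hypoxia (adjusted p = 6.84e-05) and -3.64 in normoxia (adjusted p = 0.00013). PRSS2, which encodes a trypsinogen, had 16, 5 and 12 in hypoxic bright libraries, against 164, 165 and 137 in hypoxic dim libraries (log2 fold change -3.83 ± 0.35, adjusted p = 2.19e-05). Its normoxic log2 fold change was -4.04. In both genes bright values stayed under 20 and the dim values were over 100. Because XCL1 closely resembles XCL2 in sequence, and PRSS2 other trypsinogens, how reads were shared among these genes is uncertain.

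The other kind did not pass as lower in normoxic bright cells. COL4A5, a basement membrane collagen chain (chromosome X, 108439736 to 108697545), had 1, 10 and 0 in hypoxic bright libraries, against 164, 205 and 102 in hypoxic dim libraries (log2 fold change -5.76 ± 0.84, adjusted p = 0.000522). In normoxia it had 84, 110 and 28 in normoxic bright libraries, against 4, 1 and 0 in normoxic dim libraries, so its order was the opposite. TNFAIP2, a gene induced by tumour necrosis factor, had 14, 64 and 15 in hypoxic bright libraries, against 562, 1262 and 473 in hypoxic dim libraries (log2 fold change -4.80 ± 0.63, adjusted p = 0.000272). Its normoxic values were 363, 580 and 157 in normoxic bright libraries, against 68, 22 and 20 in normoxic dim libraries, again higher in bright cells. LAMA5, a laminin chain, had 49, 132 and 56 in hypoxic bright libraries, against 666, 2145 and 834 in hypoxic dim libraries (log2 fold change -3.87 ± 0.64, adjusted p = 0.00114). In each of the 3 genes dim replicate 2 was the highest hypoxic library and bright replicate 2 the highest bright one. SDC1, the heparan sulphate proteoglycan syndecan 1, had 4, 24 and 1 in hypoxic bright libraries, against 63, 202 and 48 in hypoxic dim libraries (log2 fold change -3.77 ± 0.92, adjusted p = 0.00994). BASP1, CPNE7, GPRC5A, ALDH3B1, LAMB1, PLXNB1, CEP170B, P4HA2 and LMNA completed the 15 largest falls, with log2 fold changes between -4.73 and -3.36. The call of SDC1 was lost without dim replicate 2 (adjusted p = 0.0511). The call of P4HA2 was lost without bright replicate 1 or dim replicate 2 (adjusted p between 0.075 and 0.0901).

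Falls with replicates further apart reached larger sizes, and they are given as values. GABRE, a GABA receptor subunit, had 0, 3 and 0 in hypoxic bright libraries, against 384, 201 and 78 in hypoxic dim libraries. PRTN3, the neutrophil granule protease 3, had 2, 3 and 3 in hypoxic bright libraries, against 7043, 23 and 92 in hypoxic dim libraries. ELANE, neutrophil elastase, had 0, 0 and 0 in hypoxic bright libraries, against 1526, 7 and 14 in hypoxic dim libraries. Dim replicate 1 was the highest library for all 3 genes, and for PRTN3 and ELANE the other 2 dim libraries were under 100. IGF2BP1, SLC7A2 and NCS1 were also highest in dim replicate 1, with 1479, 568 and 414, and had at most 5 in any bright library. Without dim replicate 1 the log2 fold changes of PRTN3 and ELANE were -3.70 and -3.45, against -6.11 and -5.83 with it. No higher gene met the same limits with replicates so far apart.

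Over all called genes, 99 lower genes had a mean under 20 in hypoxic bright and of at least 100 in hypoxic dim libraries, limits that were chosen after the values were seen. Of these, 82 had replicates more than 4-fold apart in a hypoxic group. In normoxia 85 of the 99 had the higher mean in bright cells. The median normoxic log2 fold change over all genes tested was -0.005. Of the 99, 12 passed as higher in normoxia and 3 as lower, where 2.88% and 3.79% of all genes passed. Their summed value was 490, 1157 and 420 in hypoxic bright libraries, against 44904, 17695 and 5961 in hypoxic dim libraries. It was 9008, 7756 and 8697 in normoxic bright libraries, against 7826, 2816 and 3481 in normoxic dim libraries. The hypoxic bright libraries were the lowest of the 12, which the limit on their mean largely fixed. The 3 hypoxic dim libraries differed widely from each other.

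Markers of other cell types were summed as well, and the epithelial sum did not follow that of the 99 genes across hypoxic dim libraries. In that group replicate 1 had the highest sum of the 99 genes and the lowest epithelial sum. The summed value of 20 epithelial markers was 412, 1252 and 148 in hypoxic bright libraries, against 1222, 18621 and 5965 in hypoxic dim libraries (exact permutation test over the 6 libraries, 2-sided p = 0.2, where 0.1 is the smallest possible). The bright library with the highest sum exceeded the dim library with the lowest. In normoxia the sum was 3622, 7277 and 343 in normoxic bright libraries, against 366, 302 and 319 in normoxic dim libraries. Of the 20 markers 15 were tested, and 5 of these were lower and 0 higher in hypoxic bright cells. EPCAM, an epithelial adhesion molecule, had 0, 9 and 0 in bright libraries, against 137, 75 and 20 in dim libraries. KRT18, a keratin of simple epithelia, had 72, 381 and 4 in bright libraries, against 506, 4099 and 1781 in dim libraries. Dim replicate 2 was highest for KRT18 and dim replicate 1 for EPCAM, so the 2 markers did not follow the same library. KRT5 and CLDN7 were at 0 in every hypoxic bright library. The call of KRT18 was lost without bright replicates 1 or 3 or dim replicate 2 (adjusted p between 0.0502 and 0.0848). The count of lower epithelial markers was 2 without bright replicate 1, 2 without bright replicate 3, 13 without dim replicate 1 and 1 without dim replicate 2. The sum of 18 neutrophil granule genes was 9709, 9958 and 10007 in hypoxic bright libraries, against 22660, 7867 and 6867 in hypoxic dim libraries (exact permutation test, 2-sided p = 1), and most of it was PRSS57 in every library but dim replicate 1. Without PRSS57 the sum was 112, 93 and 104 in hypoxic bright libraries, against 15227, 208 and 319 in hypoxic dim libraries (exact permutation test, 2-sided p = 0.1). Of the 9 granule genes tested 1 was higher, PRSS57, and 4 were lower. The part of these cell type markers in the falls of other genes was not tested.

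**Figure D2:**
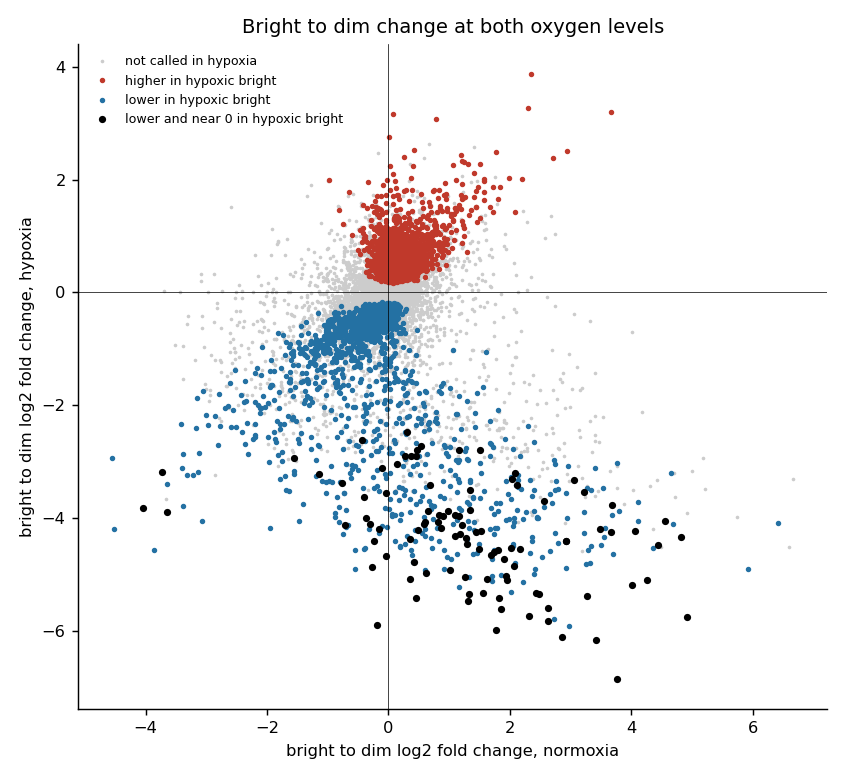
Bright to dim log2 fold change of each tested gene in normoxia (x) and hypoxia (y), 3 against 3 libraries each. Called genes are coloured by direction in hypoxia, and the 99 lower genes with a mean under 20 in hypoxic bright and of at least 100 in hypoxic dim libraries are black. 85 of these 99 had the higher mean in bright cells in normoxia, and the median normoxic log2 fold change over all genes tested was -0.005.

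Of the 41 HIF target genes tested outside glycolysis and the collagen hydroxylases, 15 were higher in hypoxic bright cells (36.6%, against 12.9% of all genes). The 6 lower ones were 14.6% of the list, near the 13.6% of all genes. The median log2 fold change of the list was 0.22, against -0.03 over all genes tested. In normoxia 0 of the 41 were higher and 3 lower in bright cells, where 2.88% and 3.79% of all genes passed. BNIP3, a mitophagy receptor, had 1918, 1499 and 854 in hypoxic bright libraries, against 661, 715 and 622 in hypoxic dim libraries (log2 fold change 1.02 ± 0.21, adjusted p = 0.00391). Bright replicate 1 was highest and bright replicate 3 lowest, and no bright value reached down to a dim one. FUT11, a fucosyltransferase, had 693, 662 and 535 in hypoxic bright libraries, against 359, 328 and 297 in hypoxic dim libraries (log2 fold change 0.93 ± 0.14, adjusted p = 0.000637). KDM3A, a histone H3 lysine 9 demethylase, had 3683, 3371 and 2640 in hypoxic bright libraries, against 2031, 2124 and 2157 in hypoxic dim libraries (log2 fold change 0.61 ± 0.10, adjusted p = 0.0013). VEGFA, the growth factor of blood vessels, had 2427, 2398 and 2113 in hypoxic bright libraries, against 1701, 1771 and 1405 in hypoxic dim libraries (log2 fold change 0.51 ± 0.10, adjusted p = 0.00247). The groups were apart for all 3 genes. Bright replicate 1 had the highest bright value in 14 of the 15 higher target genes, and bright replicate 3 had the lowest in all 15.

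The bright libraries lay further apart for 3 more higher targets, which were chosen after their values were seen. ADM, the vasodilator adrenomedullin, had 1253, 903 and 461 in hypoxic bright libraries, against 262, 470 and 385 in hypoxic dim libraries. MIR210HG, the host transcript of the hypoxia microRNA miR-210, had 652, 471 and 222 in hypoxic bright libraries, against 101, 161 and 130 in hypoxic dim libraries. DDIT4, an inhibitor of mTOR signalling also called REDD1, had 5980, 4699 and 2962 in hypoxic bright libraries, against 2505, 3361 and 2415 in hypoxic dim libraries. For ADM and DDIT4 bright replicate 3 lay within the range of the dim libraries, while bright replicates 1 and 2 were above it. The fits gave log2 fold changes of 1.15 ± 0.30 for ADM (adjusted p = 0.0125), 1.66 ± 0.34 for MIR210HG (adjusted p = 0.00401) and 0.68 ± 0.20 for DDIT4 (adjusted p = 0.0221). The count of higher targets was 8 without bright replicate 1 and 7 without bright replicate 2. It was 5 without both libraries numbered 2, and 9 when the hypoxic libraries were fitted without the normoxic ones. Lower targets were CXCR4, CA9, PPFIA4, NDRG1, VEGFB and JMJD6, of which the first 3 had replicates more than 4-fold apart. CA9, a carbonic anhydrase, had 4, 0 and 0 in bright libraries, against 20, 247 and 84 in dim libraries. The count of lower targets was 3 without bright replicate 1 and 3 without dim replicate 2. The call of ADM was lost without bright replicates 1 or 2 (adjusted p between 0.0543 and 0.0624). The call of DDIT4 was lost without bright replicates 1 or 2 or dim replicates 1 or 3 (adjusted p between 0.0508 and 0.103). The call of PPFIA4 was lost without bright replicate 1 or dim replicate 2 (adjusted p between 0.0508 and 0.0522). The call of NDRG1 was lost without bright replicates 2 or 3 or dim replicate 2 (adjusted p between 0.0765 and 0.0988). The call of VEGFB was lost without bright replicates 1 or 2 or dim replicates 1 or 2 (adjusted p between 0.0521 and 0.14). The call of JMJD6 was lost without bright replicates 1 or 2 or dim replicate 1 (adjusted p between 0.109 and 0.137).

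**Figure D3:**
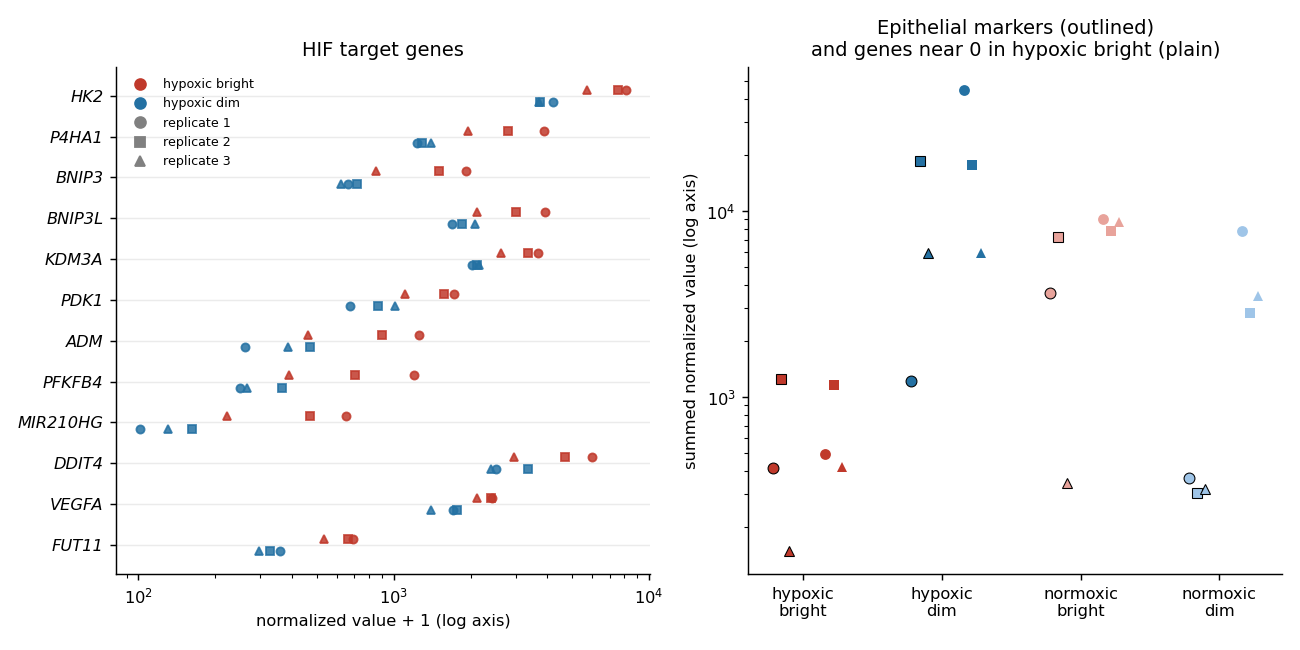
Left, normalized value plus 1 (log axis) of 12 HIF target genes in the 6 hypoxic libraries, with colour for the group and shape for the replicate. Right, summed value per library (log axis) of 20 epithelial markers (outlined) and of the 99 genes near 0 in hypoxic bright cells (plain), in all 4 groups. The 12 were chosen and all were called higher, and some belong to the glycolysis and collagen hydroxylase lists. Of the 41 HIF targets tested outside those lists, 6 were lower (14.6%, near the 13.6% of all genes) and 20 were not called. Bright replicates 1 and 2 lay above all dim libraries for each of the 12 chosen genes, and bright replicate 3 was the lowest bright library.

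Glycolysis genes that passed were mostly higher. Of 28 tested, 9 were higher (32.1%, against 12.9% of all genes) and 3 lower (10.7%, against 13.6%). The median log2 fold change was 0.20, and 0 passed in either direction in normoxia. HK2, which encodes hexokinase 2 and starts glycolysis (chromosome 2, 74832655 to 74893354), had 8115, 7557 and 5732 in hypoxic bright libraries, against 4216, 3744 and 3722 in hypoxic dim libraries (log2 fold change 0.86 ± 0.12, adjusted p = 0.000292). PFKL, the liver form of phosphofructokinase, had 9152, 9157 and 8871 in hypoxic bright libraries, against 7367, 6755 and 6293 in hypoxic dim libraries (log2 fold change 0.42 ± 0.08, adjusted p = 0.002). PDK1, a kinase that holds pyruvate back from the mitochondrion, had 1723, 1578 and 1104 in hypoxic bright libraries, against 676, 868 and 1009 in hypoxic dim libraries (log2 fold change 0.78 ± 0.17, adjusted p = 0.00522). None of the 3 genes overlapped between the groups. LDHA, lactate dehydrogenase A, and the glucose carrier SLC2A1 were higher by 0.35 ± 0.10 and 0.36 ± 0.11, and the lower genes were ALDOC, BPGM and PFKM. ALDOC, the brain form of aldolase, had 50, 61 and 32 in bright libraries, against 107, 174 and 134 in dim libraries (log2 fold change -1.54 ± 0.26, adjusted p = 0.0014). PGK1 and ENO1 did not pass, at 0.19 ± 0.09 and 0.07 ± 0.09. Bright replicate 1 had the highest bright value in 8 of the 9 higher glycolysis genes and bright replicate 3 the lowest in all 9. The count of higher genes was 4 without bright replicate 1 and 4 without bright replicate 2, and 2 without both libraries numbered 2. The calls of LDHA and BPGM were lost without bright replicates 1 or 2 (adjusted p between 0.0502 and 0.109). The call of SLC2A1 was lost without bright replicates 1 or 2 or dim replicates 2 or 3 (adjusted p between 0.0539 and 0.135). The call of PFKM was lost without bright replicates 1 or 3 or dim replicates 1 or 2 (adjusted p between 0.0504 and 0.115).

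Of 18 collagen hydroxylation and crosslinking genes 3 were higher (LOXL3, P4HA1 and PLOD1) and 3 lower (P3H3, P4HA2 and P4HA3). Each count is 16.7% of the list, near the 12.9% higher and 13.6% lower over all genes. Without both libraries numbered 2, 2 were higher and 0 lower. P4HA1, the catalytic chain of collagen prolyl 4-hydroxylase, had 3865, 2803 and 1945 in hypoxic bright libraries, against 1231, 1291 and 1403 in hypoxic dim libraries (log2 fold change 1.08 ± 0.18, adjusted p = 0.00116). All bright values were above the dim ones, with replicate 1 the highest. In normoxia its log2 fold change was -0.02. LOXL3, a lysyl oxidase-like enzyme that crosslinks collagen, had 1218, 1341 and 1399 in hypoxic bright libraries, against 723, 782 and 810 in hypoxic dim libraries (log2 fold change 0.77 ± 0.09, adjusted p = 0.000106). P4HA2, another catalytic chain, had 3, 23 and 13 in hypoxic bright libraries, against 106, 200 and 70 in hypoxic dim libraries (log2 fold change -3.38 ± 0.94, adjusted p = 0.0187). It was lower in bright cells and higher in dim replicate 2 than in any other hypoxic library, as the epithelial sum was. The call of P4HA2 was lost without bright replicate 1 or dim replicate 2 (adjusted p between 0.075 and 0.0901). The call of PLOD1 was lost without bright replicates 1 or 2 or dim replicates 2 or 3 (adjusted p between 0.0771 and 0.198). The call of P4HA3 was lost without bright replicates 1 or 3 or dim replicates 2 or 3 (adjusted p between 0.0813 and 0.134).

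Oxygen sensing genes and oxygen-dependent demethylases were mostly higher where they passed. Of 16 HIF subunits and sensors, 8 were higher (50%) and 2 lower (12.5%), against 12.9% and 13.6% of all genes. The lower 2 were TCEB1 and RBX1, parts of the ligase that marks HIF. EPAS1, which encodes HIF-2 alpha, had 744, 802 and 727 in hypoxic bright libraries, against 268, 435 and 306 in hypoxic dim libraries (log2 fold change 1.20 ± 0.16, adjusted p = 0.000305). Its log2 fold change in normoxia was 1.23, of much the same size. HIF1A, which encodes HIF-1 alpha, had 3560, 3485 and 3037 in hypoxic bright libraries, against 2693, 3006 and 3865 in hypoxic dim libraries and did not pass (adjusted p = 0.587). Of 30 demethylases 13 were higher (43.3%) and 2 lower (MINA and JMJD6), against 0 and 0 in normoxia. TET1, which oxidises 5-methylcytosine, had 586, 619 and 540 in hypoxic bright libraries, against 231, 234 and 278 in hypoxic dim libraries (log2 fold change 1.23 ± 0.11, adjusted p = 1.98e-05). KDM5B, a demethylase of histone H3 lysine 4, had 8084, 7981 and 6856 in hypoxic bright libraries, against 4431, 4028 and 4549 in hypoxic dim libraries (log2 fold change 0.82 ± 0.08, adjusted p = 5.17e-05). Both kept the groups apart. Long genes were more often higher in this comparison, and the demethylases were long, with a median length in the deposited table of 6603 bases against 3521 over all genes. With the trend with length removed, 5 demethylases and 3 sensing genes were higher, and 15 HIF targets and 9 glycolysis genes. The sensing count was 5 without bright replicate 2 and 4 without dim replicate 2. Without both libraries numbered 2, 1 sensing gene and 5 demethylases were higher. The call of RBX1 was lost without bright replicates 1, 2 or 3 or dim replicate 2 (adjusted p between 0.0681 and 0.125). The call of MINA was lost without bright replicates 1, 2 or 3 or dim replicates 2 or 3 (adjusted p between 0.0546 and 0.0932). The call of JMJD6 was lost without bright replicates 1 or 2 or dim replicate 1 (adjusted p between 0.109 and 0.137). HIF1A, which did not pass, turned to -0.02 without dim replicate 1.

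Promoters from RefSeq (GRCh38.p14), each of 250 bases before to 50 after the gene start, were found for 11643 of the tested genes. They were searched on both strands for ACGTG, the core of the HIF binding site. It was present in 22 of 35 promoters of HIF targets (62.9%), 10 of 26 of glycolysis genes (38.5%) and 3 of 15 of collagen hydroxylase genes (20%), against 26.3% of all. Among higher genes of any kind the share was 25.8%, and among lower genes 24.8%. The promoters of HK2 (chr2:74833877-74834176, plus strand) and LOXL3 (chr2:74553893-74554192, minus strand) are shown because these genes had the smallest adjusted p of their lists. Capitals mark ACGTG, which reads CACGT where it lies on the other strand, and it occurs at 2 places for HK2 and at none for LOXL3 in this window.
HK2: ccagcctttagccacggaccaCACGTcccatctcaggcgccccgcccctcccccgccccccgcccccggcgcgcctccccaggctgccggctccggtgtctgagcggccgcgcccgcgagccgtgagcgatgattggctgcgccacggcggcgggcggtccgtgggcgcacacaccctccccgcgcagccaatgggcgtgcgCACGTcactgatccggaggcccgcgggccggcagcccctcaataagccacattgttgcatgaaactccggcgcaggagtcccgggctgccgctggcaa
LOXL3: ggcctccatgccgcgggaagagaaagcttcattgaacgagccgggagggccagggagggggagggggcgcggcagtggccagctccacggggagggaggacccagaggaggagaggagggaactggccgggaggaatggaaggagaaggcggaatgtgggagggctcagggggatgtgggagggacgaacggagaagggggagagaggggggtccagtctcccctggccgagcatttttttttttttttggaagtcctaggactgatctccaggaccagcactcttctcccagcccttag

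Genes of the unfolded protein response and the integrated stress response fell more often than they rose. Of 32 tested, 15 were lower (46.9%, against 13.6% of all genes) and 6 higher (18.75%, against 12.9%), with a median log2 fold change of -0.31. PPP1R15A, the phosphatase subunit GADD34 that ends the integrated stress response, had 1031, 908 and 1140 in hypoxic bright libraries, against 1749, 1764 and 1886 in hypoxic dim libraries (log2 fold change -0.81 ± 0.09, adjusted p = 8.48e-05). ATF3, a stress-induced transcription factor, had 39, 25 and 47 in hypoxic bright libraries, against 151, 124 and 136 in hypoxic dim libraries (log2 fold change -1.90 ± 0.22, adjusted p = 0.000126). TRIB3, a pseudokinase induced by ATF4, had 224, 191 and 222 in hypoxic bright libraries, against 531, 534 and 421 in hypoxic dim libraries (log2 fold change -1.21 ± 0.17, adjusted p = 0.000478). For all 3 genes every bright value was below every dim value. ATF4, the transcription factor of this response, and DDIT3, which encodes CHOP, fell by 0.48 ± 0.10 and 0.59 ± 0.16 on the log2 scale. The chaperones MANF, SDF2L1 and HSPA5 fell too, by 0.43 ± 0.08, 0.51 ± 0.08 and 0.21 ± 0.07. The higher members were the sensors ATF6, ERN1 and EIF2AK3, the kinase EIF2AK4 and the degradation factors SEL1L and EDEM1. SEL1L had 4402, 4559 and 3904 in bright libraries, against 2260, 2262 and 3437 in dim libraries (log2 fold change 0.72 ± 0.14, adjusted p = 0.00346). Without bright replicate 2 the count of higher members was 3, and without both libraries numbered 2 it was 0, with 9 lower. The call of DDIT3 was lost without bright replicate 3 or dim replicate 2 (adjusted p between 0.0504 and 0.0677). The call of HSPA5 was lost without bright replicates 1 or 2 or dim replicates 1, 2 or 3 (adjusted p between 0.0609 and 0.132). The call of ERN1 was lost without bright replicates 2 or 3 or dim replicate 3 (adjusted p between 0.0608 and 0.0714). The call of EIF2AK3 was lost without bright replicates 1 or 2 or dim replicates 2 or 3 (adjusted p between 0.0561 and 0.149). The call of EDEM1 was lost without bright replicates 1 or 2 or dim replicate 2 (adjusted p between 0.0514 and 0.0604).

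Amino acid synthesis and uptake genes that ATF4 drives were lower in 12 of 25 cases (48%) and higher in 1, SLC43A1, with a median of -0.24. ASNS, asparagine synthetase, had 610, 648 and 634 in hypoxic bright libraries, against 1153, 1100 and 1109 in hypoxic dim libraries (log2 fold change -0.83 ± 0.14, adjusted p = 0.00141). PSAT1, of serine synthesis, had 2925, 3042 and 3667 in hypoxic bright libraries, against 4876, 5511 and 5300 in hypoxic dim libraries (log2 fold change -0.71 ± 0.12, adjusted p = 0.00113). PHGDH, the first enzyme of that pathway, fell by 0.87 ± 0.19, and ALDH1L2, a mitochondrial folate enzyme, by 1.24 ± 0.20. The groups did not overlap for ASNS or PSAT1. Of 23 cytosolic tRNA synthetases 4 were lower (WARS, HARS, NARS and MARS) and 1 was higher (IARS). These are 17.4% and 4.35% of the list, against 13.6% and 12.9% of all genes. The call of HARS was lost without bright replicate 1 or dim replicates 1 or 2 (adjusted p between 0.0545 and 0.0873). The call of NARS was lost without bright replicates 1 or 2 or dim replicate 3 (adjusted p between 0.0519 and 0.0915). The calls of MARS and IARS were lost without bright replicates 1 or 2 or dim replicates 1 or 2 (adjusted p between 0.0676 and 0.18). When both libraries numbered 2 were left out, 5 amino acid genes were lower. The composite site of CHOP and ATF4, TGATGCAAT, was in 0 of 31 promoters of the stress list and 1 of 18 of the amino acid list, against 0.129% of all. The genes with the smallest adjusted p that have a RefSeq promoter were PPP1R15A (chr19:48872171-48872470, plus strand) and PSAT1 (chr9:78296875-78297174, plus strand). Neither window holds these letters, so no capitals are set.
PPP1R15A: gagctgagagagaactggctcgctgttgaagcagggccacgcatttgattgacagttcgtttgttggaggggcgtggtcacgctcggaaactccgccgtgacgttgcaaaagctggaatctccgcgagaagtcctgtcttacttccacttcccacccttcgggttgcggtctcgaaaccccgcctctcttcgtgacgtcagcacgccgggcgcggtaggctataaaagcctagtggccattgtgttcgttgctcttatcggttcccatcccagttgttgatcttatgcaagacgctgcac
PSAT1: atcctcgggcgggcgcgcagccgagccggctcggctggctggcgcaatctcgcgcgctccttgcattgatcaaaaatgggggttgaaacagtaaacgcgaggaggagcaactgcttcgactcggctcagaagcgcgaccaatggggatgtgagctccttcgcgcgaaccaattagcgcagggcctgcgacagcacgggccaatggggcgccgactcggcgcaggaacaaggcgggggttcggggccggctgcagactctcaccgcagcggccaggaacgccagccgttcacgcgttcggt

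Some immediate early genes and heat shock genes were lower, and more did not pass. Of 30 immediate early genes 12 were lower (40%, against 13.6% of all genes) and 1 was higher (SPRY2, a feedback inhibitor of growth factor signalling). JUN, a subunit of AP-1, had 192, 182 and 295 in hypoxic bright libraries, against 585, 444 and 379 in hypoxic dim libraries (log2 fold change -1.08 ± 0.22, adjusted p = 0.0036). FOSL1, another subunit, had 694, 763 and 770 in hypoxic bright libraries, against 1202, 1249 and 1005 in hypoxic dim libraries (log2 fold change -0.63 ± 0.12, adjusted p = 0.00301). Neither overlapped between groups. The count of lower genes was 7 without bright replicate 1 and 6 without bright replicate 2, and 3 without both libraries numbered 2. Of 24 heat shock genes 10 were lower (41.7%, against 13.6% of all genes) and 0 higher, with a median of -0.27. HSPE1, the mitochondrial chaperonin HSP10, had 2269, 2181 and 2396 in hypoxic bright libraries, against 3375, 3553 and 3833 in hypoxic dim libraries (log2 fold change -0.65 ± 0.12, adjusted p = 0.00243). HSPD1, its partner HSP60, fell by 0.24 ± 0.08 (adjusted p = 0.0434). The call of HSPD1 was lost without bright replicates 1 or 2 or dim replicates 1 or 3 (adjusted p between 0.0695 and 0.144). The heat shock count was 4 without bright replicate 1 and 3 without bright replicate 2, and 1 without both libraries numbered 2.

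NF-kappaB subunits and target genes changed in both directions. REL, a subunit, had 702, 726 and 656 in hypoxic bright libraries, against 389, 281 and 435 in hypoxic dim libraries (log2 fold change 0.94 ± 0.15, adjusted p = 0.00104), and its groups were apart. IL1B, which encodes interleukin 1 beta, had 1947, 1956 and 2071 in hypoxic bright libraries, against 1240, 1568 and 1399 in hypoxic dim libraries (log2 fold change 0.51 ± 0.09, adjusted p = 0.00187). IL32, a cytokine of lymphocytes, had 12413, 11247 and 12438 in hypoxic bright libraries, against 24635, 27085 and 23075 in hypoxic dim libraries (log2 fold change -1.05 ± 0.08, adjusted p = 8.00e-06), and LTB, which encodes lymphotoxin beta, fell by 1.58 ± 0.12. Of 25 genes 5 were higher (20%) and 7 lower (28%), against 12.9% and 13.6% of all genes. The higher count was 3 without bright replicate 1, 3 without bright replicate 2, 3 without bright replicate 3 and 3 without dim replicate 2, and the lower count was 4 without bright replicate 2.

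Interferon response genes were lower in 19 of 47 cases (40.4%) and higher in 2 (GBP4 and HERC6), with a median of -0.22. In normoxia 22 were lower and 0 higher, and 16 genes were lower at both oxygen levels. GBP1, a guanylate-binding protein, had 1310, 1121 and 1028 in hypoxic bright libraries, against 2043, 2202 and 2296 in hypoxic dim libraries (log2 fold change -0.92 ± 0.12, adjusted p = 0.000226). EPSTI1, an interferon-induced gene, had 562, 615 and 590 in hypoxic bright libraries, against 930, 1020 and 1020 in hypoxic dim libraries (log2 fold change -0.75 ± 0.10, adjusted p = 0.000405). MX1, an antiviral GTPase, had 120, 130 and 116 in hypoxic bright libraries, against 211, 227 and 221 in hypoxic dim libraries (log2 fold change -0.84 ± 0.15, adjusted p = 0.00165). No bright value of these genes reached a dim one. The test of the difference between oxygen levels passed for 6 of the 47 genes, all less negative or more positive in hypoxia. GBP4 was higher in hypoxic bright cells (0.49 ± 0.10) and lower in normoxic ones (-0.36, difference 0.85, adjusted p = 0.0122). The call of HERC6 was lost without bright replicates 1, 2 or 3 or dim replicates 1 or 2 (adjusted p between 0.0778 and 0.145). The call of ERAP1 was lost without bright replicates 1 or 2 or dim replicate 2 (adjusted p between 0.0614 and 0.0756). Without both libraries numbered 2, 5 interferon genes were lower. HLA class I and peptide loading genes were lower in 9 of 21 cases (42.9%, against 13.6% of all genes) and higher in 1, ERAP1 (4.76%, against 12.9%). TAP1, a peptide transporter, had 5338, 5147 and 5200 in hypoxic bright libraries, against 8068, 7207 and 6604 in hypoxic dim libraries (log2 fold change -0.48 ± 0.09, adjusted p = 0.00209). The class I count was 5 without bright replicate 1, and 1 without both libraries numbered 2. Of 7 class II genes tested 1 was higher and 1 lower, each 14.3% of the list and near the 12.9% and 13.6% of all genes. CIITA, the class II transactivator, had 89, 79 and 81 in bright libraries, against 20, 0 and 8 in dim libraries (log2 fold change 3.87 ± 0.79, adjusted p = 0.00373). HLA-DMB, a chain of the class II peptide exchanger, had 0, 4 and 3 in bright libraries, against 32, 49 and 21 in dim libraries (log2 fold change -3.61 ± 0.77, adjusted p = 0.00499).

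GAAANNGAA, the core of the interferon response element, was in 23 of 36 interferon gene promoters (63.9%), against 6.6% of all. The promoter of GBP1 (chr1:89065159-89065458, minus strand) is shown because GBP1 had the smallest adjusted p of the list. Capitals mark the motif, at 2 places, in either orientation.
GBP1: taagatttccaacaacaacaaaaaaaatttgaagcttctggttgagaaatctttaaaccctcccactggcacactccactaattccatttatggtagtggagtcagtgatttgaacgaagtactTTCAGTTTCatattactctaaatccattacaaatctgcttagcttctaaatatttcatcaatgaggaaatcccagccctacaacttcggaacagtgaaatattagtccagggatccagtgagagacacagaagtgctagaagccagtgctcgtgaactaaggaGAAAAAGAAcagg

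Of the cell cycle genes that passed, those of DNA replication were mostly lower and those of mitosis mostly higher. Of 50 DNA replication genes 27 were lower (54%, against 13.6% of all genes) and 1, POLE, was higher, with a median of -0.25 in hypoxia and -0.25 in normoxia. CDC6, which loads the replicative helicase, had 2572, 2514 and 2671 in hypoxic bright libraries, against 3589, 3772 and 3921 in hypoxic dim libraries (log2 fold change -0.54 ± 0.06, adjusted p = 0.000141). ORC6, of the origin recognition complex, had 1246, 1204 and 1331 in hypoxic bright libraries, against 1974, 1846 and 2047 in hypoxic dim libraries (log2 fold change -0.63 ± 0.09, adjusted p = 0.000362). PCNA, the polymerase clamp, fell by 0.58 ± 0.11, and the S phase cyclin CCNE1 by 0.64 ± 0.12. Groups did not overlap for CDC6 and ORC6. Of 53 mitosis genes 20 were higher (37.7%, against 12.9% of all genes) and 1, BUB3, was lower, with a median of 0.24 in hypoxia and 0.29 in normoxia. CCNB2, a mitotic cyclin, had 2974, 2694 and 2707 in hypoxic bright libraries, against 2159, 1929 and 1773 in hypoxic dim libraries (log2 fold change 0.52 ± 0.10, adjusted p = 0.003). CENPF, a kinetochore protein, had 9176, 9446 and 8304 in hypoxic bright libraries, against 7356, 5300 and 5301 in hypoxic dim libraries (log2 fold change 0.60 ± 0.12, adjusted p = 0.00307). MKI67, the proliferation antigen, and PLK1, a mitotic kinase, were higher by 0.60 ± 0.13 and 0.65 ± 0.15. The lists kept their directions in normoxia, where 18 replication genes were lower and 16 mitosis genes higher. The call of BUB3 was lost without bright replicates 2 or 3 or dim replicates 2 or 3 (adjusted p between 0.0766 and 0.111). The mitosis count was 11 without bright replicate 1, 11 without bright replicate 2 and 11 without dim replicate 2. Without both libraries numbered 2, 11 replication genes were lower and 1 mitosis gene was higher.

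Regulators of G1 and of apoptosis changed in both directions. CDK6, a kinase of G1, had 31461, 30108 and 26104 in hypoxic bright libraries, against 15085, 16158 and 21064 in hypoxic dim libraries (log2 fold change 0.76 ± 0.13, adjusted p = 0.0012). It was the only higher gene of 23, and 6 were lower (26.1%), among them CCND2 (by 0.52 ± 0.13) and CDK2 (by 0.39 ± 0.09). The lower count was 3 without bright replicate 1, 3 without bright replicate 2 and 3 without dim replicate 2. BMF, a BH3-only protein, had 1103, 973 and 1201 in hypoxic bright libraries, against 2616, 2078 and 2138 in hypoxic dim libraries (log2 fold change -1.06 ± 0.10, adjusted p = 2.41e-05). BCL2, the survival protein, had 5829, 5943 and 5356 in hypoxic bright libraries, against 4158, 4587 and 5348 in hypoxic dim libraries, and its lowest bright value lay just above its highest dim value (log2 fold change 0.29 ± 0.10, adjusted p = 0.0459). The call of BCL2 was lost without bright replicates 1, 2 or 3 or dim replicates 1 or 2 (adjusted p between 0.0531 and 0.15). Of 18 BCL2 family genes 4 were higher and 4 lower, each 22.2% of the list, against 12.9% and 13.6% of all genes.

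Surface antigens of acute myeloid leukaemia were higher in 14 of 31 cases (45.2%, against 12.9% of all genes) and lower in 3 (9.68%, against 13.6%). Those higher included the sort markers CD38 and CD34, with CD84, SIGLEC6, CD33, CD93 and CD44. CD33, a sialic acid-binding receptor of myeloid cells, had 134, 144 and 187 in hypoxic bright libraries, against 65, 54 and 46 in hypoxic dim libraries (log2 fold change 1.48 ± 0.22, adjusted p = 0.000671). KIT, the stem cell factor receptor, had 28, 14 and 35 in hypoxic bright libraries, against 222, 86 and 99 in hypoxic dim libraries (log2 fold change -2.32 ± 0.50, adjusted p = 0.00503), and it was lower in normoxic bright cells as well (-2.33). Both genes kept the groups apart. The higher count was 9 without bright replicate 1, 8 without bright replicate 2 and 9 without dim replicate 2, and 9 with the length trend removed. Of the 17 genes of the leukaemia stem cell score, 7 were higher (41.2%, against 12.9% of all genes). The 3 lower ones (BEX3, EMP1 and DPYSL3) were 17.65% of the score, against 13.6% of all genes. FAM30A, a long non-coding RNA of the score, had 30956, 31141 and 28646 in hypoxic bright libraries, against 17002, 17806 and 17896 in hypoxic dim libraries (log2 fold change 0.78 ± 0.12, adjusted p = 0.000706). The call of CD44 was lost without bright replicates 1 or 2 or dim replicates 1 or 2 (adjusted p between 0.0861 and 0.189). The call of DPYSL3 was lost without bright replicates 1, 2 or 3 (adjusted p between 0.0553 and 0.0825).

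Transcription factors of stem and progenitor cells were higher in 9 of 28 cases (32.1%, against 12.9% of all genes) and lower in 4 (14.3%, near the 13.6% of all genes). GATA2 passed (log2 fold change 0.66 ± 0.08, adjusted p = 0.000154), and all its bright values were above its dim ones. FLI1, of the stem cell heptad, had 9554, 9167 and 9028 in hypoxic bright libraries, against 6551, 7118 and 7499 in hypoxic dim libraries (log2 fold change 0.39 ± 0.07, adjusted p = 0.00153). HOXA10 had 2186, 2077 and 2266 in hypoxic bright libraries, against 2908, 3139 and 3487 in hypoxic dim libraries (log2 fold change -0.54 ± 0.09, adjusted p = 0.00112), and HOXB3 fell by 2.19 ± 0.44. Without bright replicate 2 the higher count was 5. Granulocyte and monocyte factors were lower in 8 of 22 cases (36.4%, against 13.6% of all genes) and higher in 0. ID2, an inhibitor of helix-loop-helix factors, had 1084, 988 and 1084 in hypoxic bright libraries, against 2143, 2338 and 2573 in hypoxic dim libraries (log2 fold change -1.16 ± 0.12, adjusted p = 4.01e-05). CEBPB had 507, 527 and 569 in hypoxic bright libraries, against 929, 975 and 940 in hypoxic dim libraries (log2 fold change -0.83 ± 0.09, adjusted p = 6.11e-05). Both kept the groups apart. SPI1, which encodes PU.1, had 1055, 1062 and 1398 in hypoxic bright libraries, against 1762, 536 and 455 in hypoxic dim libraries and did not pass, with dim replicate 1 the highest of the 6 libraries. Without dim replicate 1 it was higher in bright cells (log2 fold change 1.23, adjusted p = 7.92e-05).

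Megakaryocyte genes were higher in most cases: 9 of 14 were higher (64.3%, against 12.9% of all genes) and 1, GFI1B, was lower, with a median of 0.41 in hypoxia and 0.42 in normoxia. ITGA2B, the integrin alpha IIb chain, had 44211, 48254 and 47328 in hypoxic bright libraries, against 19944, 22021 and 19308 in hypoxic dim libraries (log2 fold change 1.19 ± 0.09, adjusted p = 4.45e-06). VWF, von Willebrand factor, had 766, 772 and 852 in hypoxic bright libraries, against 364, 303 and 229 in hypoxic dim libraries (log2 fold change 1.44 ± 0.16, adjusted p = 7.97e-05). The groups were apart for both. In normoxia VWF had 690, 573 and 714 in normoxic bright libraries, against 449, 590 and 472 in normoxic dim libraries, and the difference between oxygen levels passed (1.04, adjusted p = 0.0344), as did that of ITGB3 (1.21, adjusted p = 0.0232). Among granulocyte and monocyte genes 3 of 23 were higher (13%) and 4 lower (17.4%), near the 12.9% and 13.6% of all genes. VCAN, the proteoglycan versican, had 243, 239 and 216 in hypoxic bright libraries, against 1002, 938 and 949 in hypoxic dim libraries (log2 fold change -2.05 ± 0.14, adjusted p = 3.09e-06). With both libraries numbered 2 left out, 5 megakaryocyte genes were higher. The call of GFI1B was lost without bright replicates 1, 2 or 3 or dim replicates 1 or 2 (adjusted p between 0.0569 and 0.15).

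T cell and natural killer cell genes were lower in 14 of 29 cases (48.3%, against 13.6% of all genes). CD7, PRF1 and NCAM1 were higher (10.3%, against 12.9%), and the list had a median of -0.94 in hypoxia and -1.12 in normoxia. The fall passed at both oxygen levels in all 14 lower genes. XCL2 had 69, 48 and 44 in hypoxic bright libraries, against 537, 492 and 494 in hypoxic dim libraries (log2 fold change -3.24 ± 0.24, adjusted p = 4.45e-06). FGFBP2, a secreted protein of cytotoxic lymphocytes, had 143, 126 and 108 in hypoxic bright libraries, against 734, 583 and 605 in hypoxic dim libraries (log2 fold change -2.34 ± 0.20, adjusted p = 1.64e-05). NKG7, of cytotoxic granules, had 1942, 1609 and 1646 in hypoxic bright libraries, against 3664, 3555 and 3280 in hypoxic dim libraries (log2 fold change -1.02 ± 0.12, adjusted p = 8.94e-05). All dim values were above all bright values in these genes. CD7, an early T cell antigen, had 3934, 4225 and 4658 in hypoxic bright libraries, against 2848, 3003 and 2614 in hypoxic dim libraries (log2 fold change 0.60 ± 0.08, adjusted p = 0.00024). The summed value of 38 such genes was 31393, 31814 and 31930 in hypoxic bright libraries, against 39412, 40779 and 37369 in hypoxic dim libraries (exact permutation test, 2-sided p = 0.1, the smallest possible), so transcripts of this kind were present in both groups. The lymphoid factors TBX21, IKZF3 and ETS1 were lower, and ZEB2, IKZF2, NFATC2, PAX5, IKZF1 and TCF12 were higher. The call of TCF12 was lost without bright replicate 2 (adjusted p = 0.0507).

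Receptors for cytokines and chemokines and adhesion molecules changed in both directions. IL6R, the interleukin 6 receptor, had 9767, 9973 and 9367 in hypoxic bright libraries, against 7530, 4505 and 4984 in hypoxic dim libraries (log2 fold change 0.81 ± 0.17, adjusted p = 0.00454). IL2RB, the beta chain of the interleukin 2 receptor, had 265, 205 and 167 in hypoxic bright libraries, against 583, 554 and 506 in hypoxic dim libraries (log2 fold change -1.39 ± 0.21, adjusted p = 0.000763). Neither gene overlapped between groups. Of 29 cytokine receptors 4 were higher (13.8%, near the 12.9% of all genes) and 7 lower (24.1%, against 13.6%). Without bright replicate 2, 3 were lower. CCR2, a monocyte chemokine receptor, had 222, 262 and 214 in hypoxic bright libraries, against 88, 77 and 78 in hypoxic dim libraries (log2 fold change 1.51 ± 0.18, adjusted p = 0.000122). CXCR3, a lymphocyte chemokine receptor, had 254, 174 and 192 in hypoxic bright libraries, against 883, 772 and 663 in hypoxic dim libraries (log2 fold change -1.91 ± 0.21, adjusted p = 6.84e-05). Of 20 chemokine genes 2 were higher (10%) and 7 lower (35%). Integrins and adhesion genes were higher in 12 of 29 cases (41.4%) and lower in 7 (24.1%). ITGB7, an integrin chain of gut-homing lymphocytes, had 26, 22 and 31 in hypoxic bright libraries, against 304, 237 and 179 in hypoxic dim libraries (log2 fold change -3.12 ± 0.28, adjusted p = 1.96e-05). ESAM, an endothelial and platelet adhesion molecule, had 3316, 3096 and 3258 in hypoxic bright libraries, against 1492, 1971 and 1776 in hypoxic dim libraries (log2 fold change 0.89 ± 0.13, adjusted p = 0.000442). In neither gene did a value overlap.

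**Figure D4:**
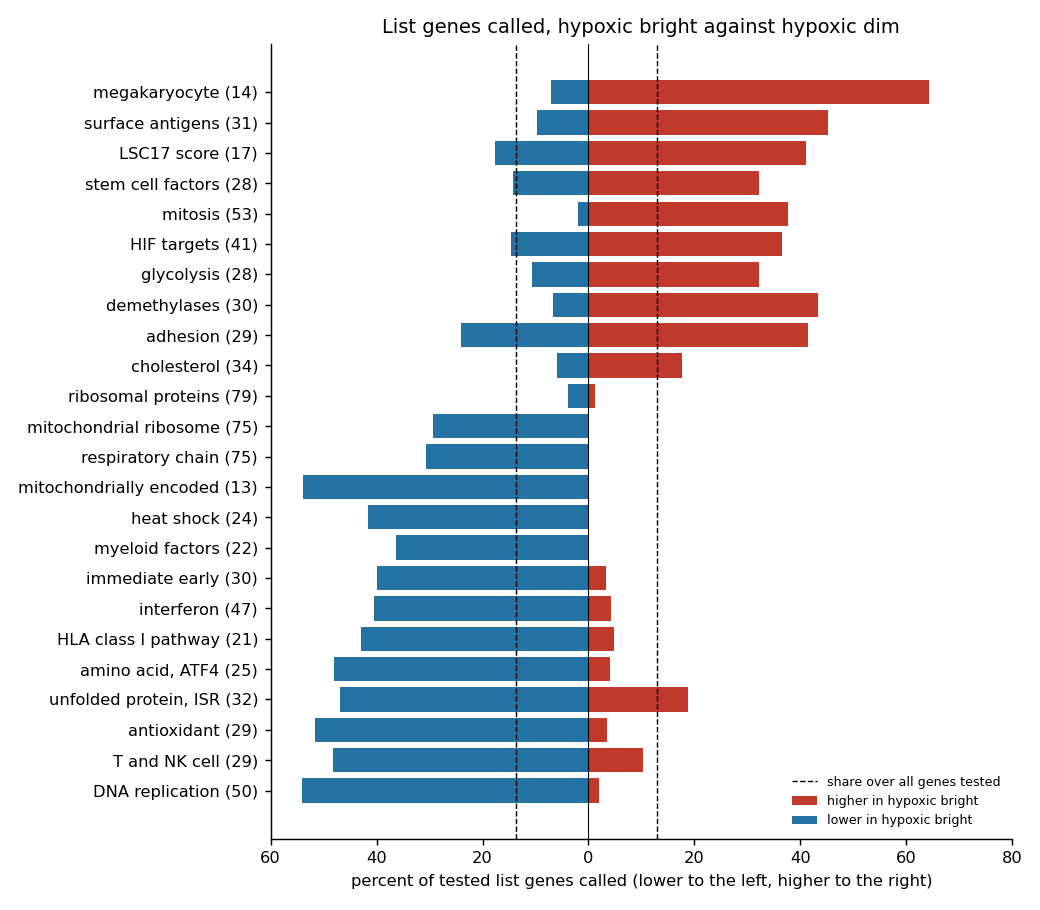
Share of tested genes called higher (right) or lower (left) in hypoxic bright against hypoxic dim cells for 24 of 47 gene lists, with the number tested in brackets. Dashed lines give the shares over all genes tested, 12.9% higher and 13.6% lower. Megakaryocyte genes had the longest bar to the right, and DNA replication and mitochondrially encoded genes the longest to the left.

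Mitochondrial genes that passed were lower. Of 13 mitochondrially encoded subunit genes 7 were lower (53.85%, against 13.6% of all genes) and 0 higher, with a median of -0.34 in hypoxia and 0.09 in normoxia. ND2, a subunit of complex I, had 88005, 89957 and 100385 in hypoxic bright libraries, against 135153, 163668 and 155369 in hypoxic dim libraries (log2 fold change -0.70 ± 0.11, adjusted p = 0.000707). COX2, a subunit of complex IV, had 133030, 133081 and 140745 in hypoxic bright libraries, against 172081, 194422 and 169251 in hypoxic dim libraries (log2 fold change -0.39 ± 0.10, adjusted p = 0.00965). Neither overlapped between groups. Nuclear-encoded respiratory chain genes were lower in 23 of 75 cases (30.7%) and mitochondrial ribosomal protein genes in 22 of 75 (29.3%), with 0 higher in either list and medians of -0.20 and -0.18. COX7C, a small subunit of complex IV, had 2642, 2803 and 2905 in hypoxic bright libraries, against 4180, 3943 and 3590 in hypoxic dim libraries (log2 fold change -0.49 ± 0.09, adjusted p = 0.00203). MRPS6, of the small mitochondrial ribosomal subunit, had 1002, 990 and 1026 in hypoxic bright libraries, against 1456, 1433 and 1400 in hypoxic dim libraries (log2 fold change -0.51 ± 0.09, adjusted p = 0.00224). Cytosolic ribosomal protein genes passed in 4 of 79 cases, 1 higher (1.27%) and 3 lower (3.8%). Both shares were below the 12.9% and 13.6% of all genes. Leaving out single libraries left lower counts in respiratory chain genes of 10 without bright replicate 1, 9 without bright replicate 2 and 11 without dim replicate 2. For the mitochondrial ribosome they were 8 without bright replicate 1, 9 without bright replicate 2 and 9 without dim replicate 2, and for mitochondrially encoded genes 4 without bright replicate 1. Leaving out both libraries numbered 2 gave 2, 1 and 1.

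These lists hold short genes, and change followed gene length over all genes. When genes were ranked by their length in the deposited table into 10 equal bins, in the bin with the shortest the median log2 fold change was -0.16, with 4.65% higher and 16.7% lower. In the bin with the longest it was 0.19, with 31.9% higher and 8.63% lower. In normoxia these medians were 0.05 and -0.06. Relative to the mean of the 12 libraries, the longest genes had median deviations of 0.11, 0.13 and 0.04 in hypoxic bright libraries, against -0.13, -0.18 and -0.06 in hypoxic dim libraries (log2). Median lengths were 1013 bases for respiratory chain genes, 1517 for mitochondrial ribosomal genes and 784 for mitochondrially encoded genes. With the length trend removed from each library, 8 respiratory chain genes, 8 mitochondrial ribosomal genes and 5 mitochondrially encoded genes were lower. Of the 27 replication genes and 14 T and natural killer cell genes called lower, 24 and 13 were still lower after this removal, and of the 20 mitosis genes called higher 15 were still higher. What sets the length trend was not tested.

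**Figure D5:**
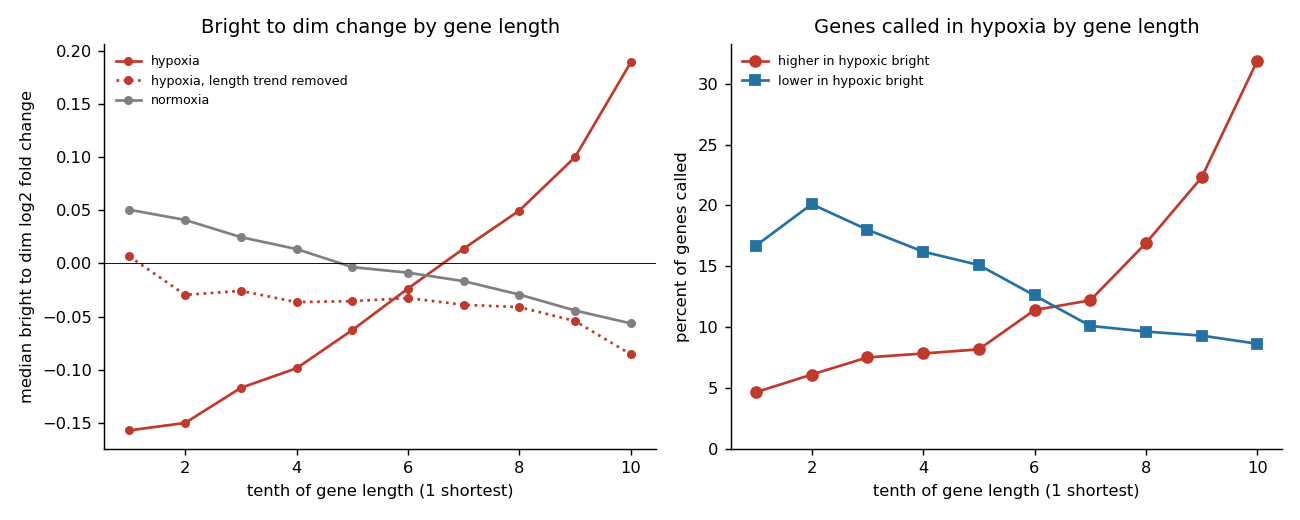
Left, median bright to dim log2 fold change by bin of gene length (10 bins, shortest to longest), in hypoxia, in hypoxia with the length trend removed and in normoxia. Right, percent of genes called higher or lower in hypoxic bright cells in each bin. The share called higher runs from 4.65% in the shortest bin to 31.9% in the longest.

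Antioxidant and iron genes that passed were mostly lower in hypoxic bright cells. Of 29 antioxidant, glutathione and pentose phosphate genes 15 were lower (51.7%) and 1 was higher, with a median of -0.22. NQO1, a quinone reductase and target of NRF2, had 388, 425 and 586 in hypoxic bright libraries, against 1043, 2100 and 1605 in hypoxic dim libraries (log2 fold change -1.73 ± 0.21, adjusted p = 0.000132). TXN, thioredoxin, had 4750, 4513 and 4712 in hypoxic bright libraries, against 6384, 7493 and 7945 in hypoxic dim libraries (log2 fold change -0.64 ± 0.10, adjusted p = 0.000784). All dim values were above all bright values. SOD2, mitochondrial superoxide dismutase, was the higher gene, with 4178, 4071 and 4067 in hypoxic bright libraries, against 2503, 2561 and 2805 in hypoxic dim libraries (log2 fold change 0.65 ± 0.07, adjusted p = 8.66e-05). FTL, the ferritin light chain, had 59923, 56551 and 72010 in hypoxic bright libraries, against 101858, 108830 and 111487 in hypoxic dim libraries (log2 fold change -0.78 ± 0.09, adjusted p = 0.000129), and FTH1, the heavy chain, fell by 0.77 ± 0.11. Of 24 iron genes 5 were lower (FTL, FTH1, HMOX1, HMOX2 and PCBP1) and 1 was higher (ACO1). These are 20.8% and 4.17% of the list, against 13.6% and 12.9% of all genes. The antioxidant count was 8 without bright replicate 1, 8 without bright replicate 2 and 9 without dim replicate 2, and 6 without both libraries numbered 2. The call of HMOX1 was lost without bright replicates 1 or 2 or dim replicates 2 or 3 (adjusted p between 0.0505 and 0.101). The call of ACO1 was lost without bright replicates 1, 2 or 3 or dim replicates 1 or 2 (adjusted p between 0.0561 and 0.128).

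Autophagy, PI3K and transport genes gave mixed lists. SQSTM1, the autophagy receptor p62, had 4812, 4548 and 5092 in hypoxic bright libraries, against 7652, 7435 and 6838 in hypoxic dim libraries (log2 fold change -0.60 ± 0.09, adjusted p = 0.000586). Of 36 autophagy genes 6 were higher (16.7%) and 10 lower (27.8%), against 12.9% and 13.6% of all genes. The higher count was 3 without bright replicate 1, and the lower count 4 without bright replicate 1, 4 without bright replicate 2 and 5 without bright replicate 3. DEPTOR, an inhibitor of mTOR, had 460, 545 and 583 in hypoxic bright libraries, against 190, 208 and 206 in hypoxic dim libraries (log2 fold change 1.38 ± 0.14, adjusted p = 3.46e-05). INPP4B, a phosphoinositide phosphatase, had 2960, 3326 and 2734 in hypoxic bright libraries, against 1476, 1298 and 1511 in hypoxic dim libraries (log2 fold change 1.07 ± 0.15, adjusted p = 0.000372), while its log2 fold change in normoxia was -0.08 (difference 1.15, adjusted p = 0.0201). Both kept the hypoxic groups apart. Of 27 genes of the mTOR brake and of PI3K, 9 were higher (33.3%, against 12.9% of all genes) and 5 lower (18.5%, against 13.6%). The higher count was 5 without bright replicate 1 and the lower count 2 without bright replicate 1, 2 without bright replicate 2 and 3 without dim replicate 2. ABCB1, the drug efflux pump P-glycoprotein, had 4721, 5104 and 5159 in hypoxic bright libraries, against 2727, 3148 and 3855 in hypoxic dim libraries (log2 fold change 0.64 ± 0.12, adjusted p = 0.00235). ABCA1, a cholesterol efflux pump, had 173, 199 and 161 in hypoxic bright libraries, against 86, 84 and 74 in hypoxic dim libraries (log2 fold change 1.11 ± 0.20, adjusted p = 0.00197). Of 21 transporters 5 were higher (23.8%, against 12.9% of all genes) and 4 lower (19%, against 13.6%). Of 34 cholesterol and fatty acid synthesis genes 6 were higher (17.65%, against 12.9% of all genes) and 2 lower (5.88%, against 13.6%). The higher count was 2 without bright replicate 2, 2 without bright replicate 3, 2 without dim replicate 2 and 3 without dim replicate 3. Of 22 NAD genes CD38 was higher, and NAMPT, which salvages nicotinamide, was lower by 0.32 ± 0.10. Each is 4.5% of the list, below the 12.9% and 13.6% of all genes. The call of NAMPT was lost without bright replicates 2 or 3 or dim replicate 2 (adjusted p between 0.0772 and 0.136).

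Bright and dim cells differed in more genes in hypoxia (3994) than in normoxia (1003), and the difference of these differences passed for 355 genes, 165 in the positive direction (1.1% of genes tested) and 190 in the negative direction (1.26%). Of the genes higher in hypoxic bright cells 15.3% were also higher in normoxic bright cells, and 68.6% of the genes higher in normoxia were higher in hypoxia. For lower genes the shares were 18.8% and 67.7%. In the opposite direction in normoxia were 3 of the higher and 36 of the lower genes. IGSF9B had the largest positive difference among genes with replicates within 4-fold in all 4 groups (2.15, adjusted p = 0.0224), and in normoxia it had 2546, 1452 and 1400 in normoxic bright libraries, against 1027, 2310 and 1265 in normoxic dim libraries, which overlap. SIGLEC6 came next (1.83, adjusted p = 0.006), with 545, 610 and 519 in normoxic bright libraries, against 411, 475 and 375 in normoxic dim libraries. LNPEP, an aminopeptidase of the cell surface, had 727, 751 and 600 in hypoxic bright libraries, against 274, 200 and 257 in hypoxic dim libraries (difference 1.71, adjusted p = 0.0296). ANKRD36C, ZNF699, ZBED6, ABCA1 and NBEAL1 completed the 8, with differences between 1.58 and 1.66. Negative differences were larger, at -10.67 for COL4A5, -8.12 for TNFAIP2 and -7.46 for SDC1, followed by BASP1, ALDH3B1, LLGL2, CPNE7 and PLXNB1, and 143 of the 190 genes had a mean under 20 in hypoxic bright cells.

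Among HIF target, glycolysis and collagen hydroxylase genes the difference passed for P4HA1 (1.10, adjusted p = 0.041), FUT11 (0.87, adjusted p = 0.0401), KDM3A (0.67, adjusted p = 0.0335) and DDIT4 (1.14, adjusted p = 0.0489), which were more positive in hypoxia, and for P3H3 (-4.07, adjusted p = 0.0363). The differences of BNIP3 (1.12, adjusted p = 0.0608), HK2 (0.62, adjusted p = 0.0597) and ADM (1.28, adjusted p = 0.105) did not pass. Among demethylases the difference passed for KDM3A, KDM5A, KDM5B and TET1, at 0.90 for TET1 (adjusted p = 0.0159). Of 37 genes named in the text whose difference passed, 8 passed whichever of the 12 libraries was left out (SIGLEC6, BASP1, COL4A5, GABRE, IGF2BP1, LAMA5, LLGL2 and TNFAIP2). Without hypoxic bright replicates 1 or 2, 9 and 17 of the 37 passed, without hypoxic dim replicate 2, normoxic dim replicate 2 or normoxic dim replicate 3, 15 each, and without normoxic bright replicate 2, 9. The 8 held none of P4HA1, FUT11, KDM3A, DDIT4, P3H3, KDM5A, KDM5B and TET1. The count of 355 genes also moved with single libraries. Without hypoxic bright replicates 1 or 2 it was 51 and 128, and without hypoxic dim replicates 2 or 3 it was 69 and 1520. Without normoxic bright replicates 1 or 2 it was 622 and 55, and without normoxic dim replicates 1, 2 or 3 it was 653, 68 and 72. It was 43 without the mean trend of limma and 39 without both hypoxic libraries numbered 2.

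By chromosome the median log2 fold change in hypoxia lay between -0.08 (chromosome 17) and 0.02 (chromosome 14) over the autosomes and X. It was 0.175 on chromosome Y (14 genes) and -0.40 on the mitochondrial genome (31 genes). Markers of skeletal muscle, melanocytes and fibroblasts gave few calls. Of 19 skeletal muscle and 5 melanocyte markers tested 0 passed, and of 15 fibroblast markers 1, FN1 (fibronectin), was lower, with 199, 459 and 295 in bright libraries, against 6977, 2912 and 664 in dim libraries. The call of FN1 was lost without bright replicates 1, 2 or 3 or dim replicates 1 or 2 (adjusted p between 0.0791 and 0.141). Only 3 of 10 B cell markers were tested, and of these IGLL1 and PAX5 were higher. Summed over the 10, values were 1453, 1397 and 1330 in hypoxic bright libraries, against 932, 875 and 832 in hypoxic dim libraries (exact permutation test, 2-sided p = 0.1). Without IGLL1, the most abundant, they were 407, 335 and 376 in hypoxic bright libraries, against 231, 241 and 215 in hypoxic dim libraries. Of 12 erythroid markers 10 were at 0 in all hypoxic bright libraries.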

How the data were processed

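RNA from 12 KG1a libraries was sequenced as paired reads. Reads were trimmed with Trimmomatic 0.39 and aligned with STAR 2.4.2a to hg38 (GRCh38), per the submitters' processing notes. No source used here gives the counting tool, the gene annotation or the strand setting. Reads of overlapping, antisense and near-identical genes therefore cannot be told apart. The deposited table holds 1 score per gene and library, a count divided by a size factor and rounded to whole numbers by the authors, as its values show: library sums are nearly equal and low values are evenly spaced. Counts could not be recovered, so no count test was run.

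Genes that reached a value of 10 in 3 or more of the 12 libraries (15057 of 28395) were fitted with limma 3.58.1 in R 4.3.3 on log2 of the value plus 1, with 4 group means, a mean trend and Benjamini-Hochberg adjustment over all genes. The contrasts were hypoxic bright minus hypoxic dim, the same in normoxia and the difference between both. Gene lengths are those of the deposited table. The script was tested on simulated data with known changes. Sums of marker genes were compared with exact permutation tests. The 47 gene lists, the tests and the comparison itself were chosen with earlier results of these data known, so list counts are descriptions. Genes were named by rule: the sort markers, the 15 largest called changes per direction that met limits on level and replicate spread, the 6 largest that missed only the spread limit, in each list the 4 higher and the 4 lower called members (or fewer) of smallest adjusted p, and the 8 largest differences between oxygen levels per direction. The limits for the largest changes and differences also asked for hypoxic groups that do not overlap. A further 31 genes were named after their values were seen because their role is central to a list. Some genes that met the rule are not reported here. Promoters came from RefSeq GRCh38.p14. Alternatives covered scaling, trend, filters, pseudocounts, library weights, the samples in the fit, the replicate number as a block and libraries left out, and the removal of the trend with gene length was added after the data had been seen. Reads counted per library were estimated at 25200000 to 39500000, at which 1 read is worth 0.815 to 1.27 of the deposited values, and this sets the precision of low values.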

Additional observations from a re-analysis of the deposited data

Results flagged for a closer look

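The difference between bright and dim cells was not the same at both oxygen levels for 355 genes, by limma's test of the difference itself (Benjamini-Hochberg adjusted p under 0.05). Those described in the report are given with the hypoxic minus the normoxic log2 fold change, bright over dim in both.

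More positive in hypoxia were IGSF9B (2.15), SIGLEC6 (1.83), LNPEP (1.71), ANKRD36C (1.66), ZNF699 (1.66), ZBED6 (1.62), ABCA1 (1.59), NBEAL1 (1.58), ITGB3 (1.21), REL (1.17) and INPP4B (1.15). Smaller positive differences were found for DDIT4 (1.14), P4HA1 (1.10), VWF (1.04), ZBTB20 (0.97), TET1 (0.90), FUT11 (0.87), GBP4 (0.85), KDM5A (0.85), NYNRIN (0.76), KDM3A (0.67) and KDM5B (0.52).

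More negative in hypoxia were KRT18 (-10.83), COL4A5 (-10.67), GABRE (-10.61), IGF2BP1 (-9.59), PRTN3 (-8.97), TNFAIP2 (-8.12), EPCAM (-8.06), SLC7A2 (-7.76), SDC1 (-7.46), BASP1 (-6.63), LAMA5 (-6.27), LLGL2 (-4.66), P3H3 (-4.07), ND2 (-0.64) and COX7C (-0.52). Of the 190 genes with a negative difference 143 had a mean under 20 in hypoxic bright libraries, and 95 had replicates more than 4-fold apart, against 0 of the 165 with a positive one. Of the 37 genes listed 8 passed whichever single library was left out, and without 1 library as few as 9 passed. What sets these differences was not tested.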

How the results depend on the processing

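The count of genes that differed between hypoxic bright and hypoxic dim cells (3994) stayed within 1.5 times of its value under both rescalings, both other pseudocounts, both other filters, limma without the trend, the fit of the hypoxic libraries alone, the removal of replicate-discordant genes or of the length trend and the removal of the libraries highest in granule genes. It was 269 against a change of at least 1.5-fold, 7558 with library weights and 1135 without the pair highest in epithelial markers (hypoxic bright replicate 2 and hypoxic dim replicate 2), and between 2289 and 4347 when single libraries were left out. List genes called (466) numbered 43, 767 and 168 under these 3 settings, and 298 to 493 without single libraries. The difference between oxygen levels (355) gave 43 genes without the trend, 164 with a filter at a mean of 50, 162 with a pseudocount of 10, 81 against a 1.5-fold change, 4810 with library weights, 39 without the epithelial pair, 193 with the length trend removed and 51 to 1520 without single libraries. The cause was not tested for any of these shifts. HIF target promoters holding ACGTG (62.9%) were 85.7% when GCGTG was also allowed, against 62.0% of all promoters. CLEC12A, which did not pass, had values of -0.334 to 0.684 (log2) when single libraries were left out, at -0.334, -0.041 and -0.292 without dim replicate 2, dim replicate 3 and bright replicate 1, and of -0.185 without the epithelial pair. ENO1 lay between -0.011 (without dim replicate 3) and 0.146, and HIF1A between -0.024 (without dim replicate 1) and 0.237 (without dim replicate 3), and neither passed. Of 190 called genes named in the text, 48 passed under every alternative and 0 turned direction. Upper quartile rescaling left 1721 higher and 2268 lower genes.

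Same-numbered hypoxic bright and dim libraries had correlations of -0.05, 0.32 and -0.03 between their deviations from the group means. For normoxic bright and dim libraries they were 0.448, 0.0599 and 0.177. With 3 libraries per group these values cannot decide whether the replicate numbers pair the samples. With the replicate number as a block, 3782 genes differed in hypoxia, 329 between oxygen levels and 452 in the lists, and 9 genes named in the text lost their call.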
